A study of Mus musculus with 12 samples.

Results

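Hearts of 3 mouse lines with an altered Nkx2-5 allele were compared, as 1 pool, with hearts of a control line that carries a knock-in at the same gene. The pool holds the 9 arrays labelled Nkx2-5 I183M/+, Nkx2-5 I183P/+ and Nkx2-5 delta/+, of 12 arrays in all, and the control holds the 3 arrays labelled Nkx2-5 control/+. The arrays were taken by these titles. Each line entered with the mean of its 3 arrays and with equal weight, so that no line decided the pool by its spread. Every animal was a 15 week old male of strain C57BL/6J, and the tissue was the apex of the heart. In I183M and I183P the isoleucine at position 183 of the protein is exchanged for methionine or proline. Delta is the line in which the gene is deleted on the altered allele, and the control knock-in keeps isoleucine at that position. All 4 groups therefore carry a modified allele together with a + allele. Nothing in the labels ties the 3 arrays of a group to separate animals, and each p-value here therefore measures the spread between these samples.

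Nkx2-5 is a homeobox transcription factor of heart muscle cells. It binds DNA through its homeodomain, works with partners such as the GATA and T-box factors, and is needed for heart formation and for the conduction system. Its best known targets in the heart include the natriuretic peptide gene Nppa. The comparison asks which genes differ from the control in the same direction with either missense allele and with the deletion allele.

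Control replicate 1 stood apart, and the features past the threshold and the main gene lists are given with and without it. On that array 99.1% of the 59305 spots were well above background, against 51.2% to 75.2% on the other 11, and its best rank correlation with another array was 0.878 against 0.940 to 0.967. Its median processed intensity was 602 against 34.8 to 92.5. No spot was saturated. The mean log2 intensity of 8 markers of ventricular heart muscle lay between 18.09 and 18.14 on the 9 mutant arrays. On the controls it lay between 18.12 and 18.13. At this brightness quantile scaling keeps arrays alike, and these markers do not tell the apex from other heart muscle. The apex label was therefore not checked by them. The mean of 3 lung markers lay between 3.88 and 4.96 on all 12 arrays. The mean of 5 atrial markers varied from 8.44 to 12.92 within the mutant lines. It read 10.80, 8.62 and 11.34 on the 3 control arrays, and its part in the results was not tested. The arrays lay on a pair of slides, with 8 on slide 1 and 4 on slide 2. Slide 1 held all control and I183M arrays and I183P replicates 1 and 2, and slide 2 held I183P replicate 3 and the 3 delta arrays. Delta and control shared no slide, so that slide and allele cannot be told apart in the comparison of that line with the control.

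Of 29794 genes and unnamed features tested, 7 were lower in the pool than in the control and 0 were higher (limma's moderated test with Benjamini-Hochberg adjusted p under 0.05). The 7 are 0.0235% of the features tested. Before adjustment, 1442 features had p under 0.05 with a positive fold (4.84%) and 775 with a negative one (2.60%), and without control replicate 1 these were 1062 (3.56%) and 1414 (4.75%). Against the control, 1 feature passed in I183M, 1 in I183P (0.00336% each) and 11 in delta (0.0369%), and these comparisons share the control arrays. Over all features, 27.5% had a negative fold in every line, and on 0.597% the 9 mutant arrays lay below the 3 control arrays. All 7, which were chosen by the pooled contrast, had a negative fold in each of the 3 lines. On all 7 the 9 mutant arrays lay below the 3 control arrays. Of these, 4 have a gene symbol: Scgb1c1, a small secreted protein of epithelia, Cideb, a protein of lipid droplets and lipoprotein secretion, Pde5a, which hydrolyses cyclic GMP, and Slc49a4, a transporter of lysosomal membranes. The other 3 are long transcripts with no symbol in the array layout.

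The promoters of the 4 named genes are printed because these genes were lower together in lines with an altered DNA-binding factor, and Nkx2-5 is known to bind sites built on the letters AAGTG. Each runs from 250 bases before to 50 after the start of the gene, from RefSeq on build GRCm38.p6, read 5′ to 3′ on the strand of the gene. Capitals mark AAGTG, or CACTT where it lies on the opposite strand.
Scgb1c1, chr7:140845315-140845614, plus strand: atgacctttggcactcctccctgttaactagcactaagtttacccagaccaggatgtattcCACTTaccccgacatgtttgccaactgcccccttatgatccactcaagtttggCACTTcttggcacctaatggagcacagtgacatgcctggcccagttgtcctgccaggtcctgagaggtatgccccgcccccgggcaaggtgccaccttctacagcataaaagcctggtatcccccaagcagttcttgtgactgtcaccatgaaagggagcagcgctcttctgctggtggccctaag
Cideb, chr14:55758375-55758674, minus strand: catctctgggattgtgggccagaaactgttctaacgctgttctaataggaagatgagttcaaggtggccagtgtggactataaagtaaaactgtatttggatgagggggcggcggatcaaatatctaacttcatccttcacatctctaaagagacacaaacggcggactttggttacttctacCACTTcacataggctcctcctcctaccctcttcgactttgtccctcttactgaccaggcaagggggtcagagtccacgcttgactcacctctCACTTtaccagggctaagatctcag
Pde5a, chr3:122728908-122729207, plus strand: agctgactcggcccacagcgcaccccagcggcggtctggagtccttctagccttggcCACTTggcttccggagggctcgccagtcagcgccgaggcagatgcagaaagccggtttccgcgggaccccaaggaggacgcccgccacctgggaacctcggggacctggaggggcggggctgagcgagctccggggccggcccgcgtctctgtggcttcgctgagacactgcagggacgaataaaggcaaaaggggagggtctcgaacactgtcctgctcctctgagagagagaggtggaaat
Slc49a4, chr16:35769321-35769620, minus strand: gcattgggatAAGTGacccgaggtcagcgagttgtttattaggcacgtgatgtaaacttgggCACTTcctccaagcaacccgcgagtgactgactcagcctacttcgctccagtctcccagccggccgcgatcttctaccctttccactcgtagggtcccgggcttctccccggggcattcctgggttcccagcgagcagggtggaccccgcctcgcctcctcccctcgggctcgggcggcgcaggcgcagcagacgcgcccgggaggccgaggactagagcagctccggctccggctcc
AAGTG was found on either strand in all 4 promoters, 2 times in Scgb1c1, Cideb and Slc49a4 and 1 time in Pde5a. The same letters are in 46.4% of all 32851 promoters of 300 bases and in 43.8% of the 17028 promoters of tested genes. The longer form TNAAGTG, which contains AAGTG, was found in Cideb, 2 times, and in none of the other 3. It is in 11.5% of all promoters. These matches describe the letters in the window and are not sites of binding.

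Scgb1c1 had the largest fold of the 7, and it passed the threshold in every line. Its level was 12.73, 12.67 and 12.74 (log2 intensity) in the 3 control arrays. In I183M it was 9.05, 8.32 and 8.84, in I183P 9.42, 8.67 and 8.30, and in delta 9.22, 9.49 and 9.01. The controls lay within 0.1 of each other and no mutant array came within 3 log2 units of them. The pooled log2 fold was -3.79 (SE 0.24, adjusted p 0.00138), which is 13.8-fold lower. The folds of I183M, I183P and delta were -3.98, -3.92 and -3.47 (SE 0.29 each), with adjusted p 0.00544, 0.00621 and 0.00447. It was the only 1 of the 29794 features past the threshold in each of the 3 lines separately (0.00336%), and the 3 lines did not differ past the threshold (adjusted p 1 in the F test among lines). The 3 folds share the control arrays. Without control replicate 1 the pooled fold was -3.91 (SE 0.30, adjusted p 0.0218), and it was then the only feature called in the pool (0.00336%). In that fit I183M no longer passed alone, so the count of features past the threshold in each line was 0.

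The pair of chromosome 17 features without a symbol had folds of like size in all 3 lines. The longer, of 20251 bases, lies at chr17:32035750-32056000 on build mm9. Its controls read 11.14, 10.80 and 10.82, and the 9 mutant arrays ran from 9.02 to 9.57 (median 9.26). No mutant array came within 1 log2 unit of a control array. The pooled log2 fold was -1.59 (SE 0.15, adjusted p 0.0292), and the folds of I183M, I183P and delta were -1.67, -1.60 and -1.51. The shorter feature, of 1152 bases at chr17:32044823-32045974, lies within it, on the same strand, and whether both read 1 transcript was not tested. Its controls read 11.996, 11.38 and 11.41 and its mutants from 9.55 to 10.22 (fold -1.67, SE 0.19, adjusted p 0.0470). Other probes of the 2 features gave folds of -1.73, -1.32 and -1.60. Nkx2-5, Heatr5b, Notch3 and Psmb8 are also on chromosome 17, and of these Notch3 and Psmb8 had positive pooled folds. Whether position on the chromosome plays a part was not tested.

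**Figure D1:**
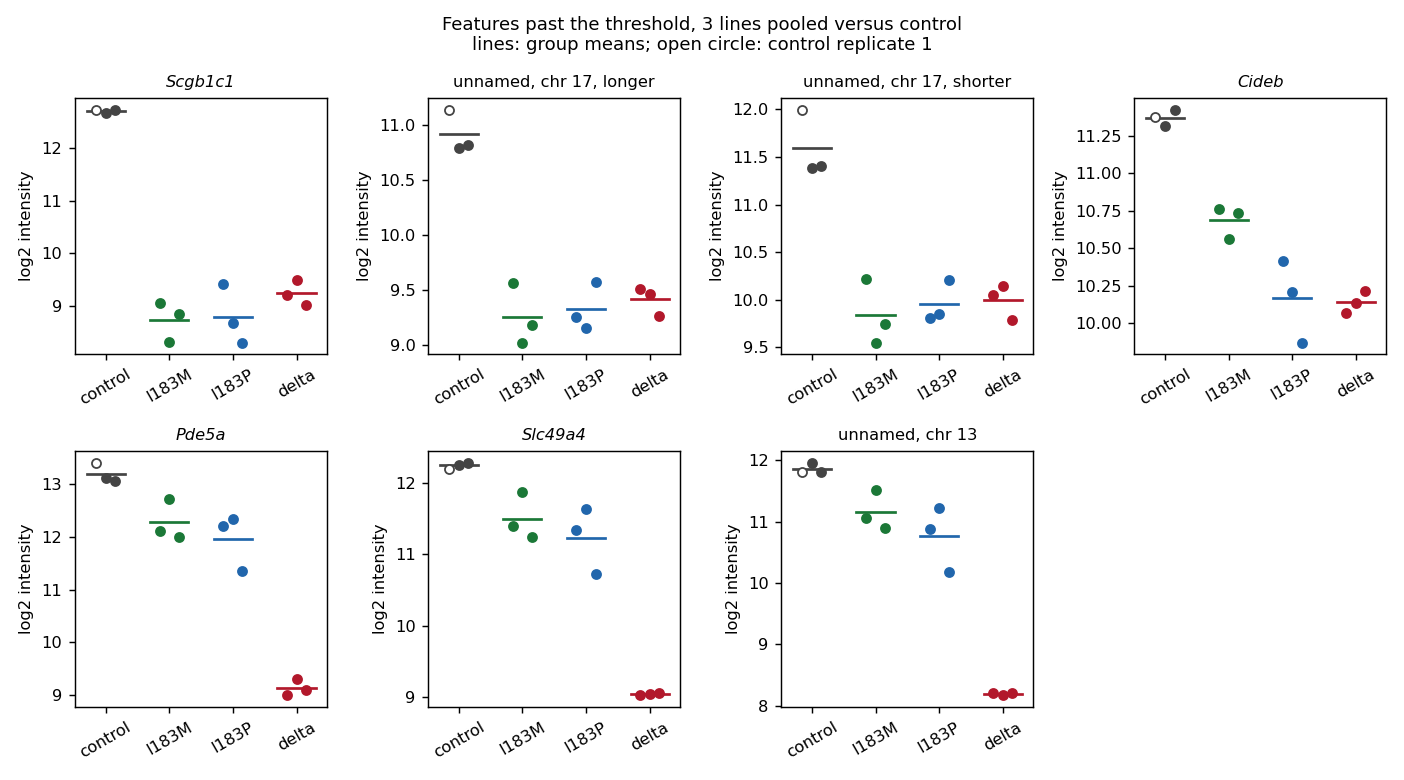
Log2 intensity (vertical axes) on each of the 12 arrays, by group, for the 7 features that were lower in the pool. Points are arrays, lines are group means, and the open circle is control replicate 1. In every panel the 9 mutant arrays lie below the 3 control arrays, and in the Pde5a, Slc49a4 and chromosome 13 panels the delta arrays lie lower still.

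Cideb, whose product shapes lipid droplets and lets the liver secrete lipoprotein, was the smallest of the 7 differences in size. The controls read 11.37, 11.32 and 11.42. The mutants read 10.76, 10.56 and 10.73 in I183M, 10.42, 10.21 and 9.87 in I183P and 10.07, 10.13 and 10.22 in delta. The pooled log2 fold was -1.04 (SE 0.12, adjusted p 0.0470), 2.05-fold lower, and the lines gave -0.68, -1.20 and -1.23. Its second probe gave -1.69.

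Pde5a, Slc49a4 and a chromosome 13 feature had the group means in the order control, I183M, I183P and delta, as did Cideb. Genes that did not pass had this order too, Heatr5b, Plekhh1 and Myorg among them, and they were not counted. Pde5a read 13.40, 13.12 and 13.05 in the controls, 12.11, 12.72 and 11.99 in I183M, 12.20, 12.34 and 11.36 in I183P, and 9.00, 9.30 and 9.10 in delta. Its pooled fold of -2.07 (SE 0.23, adjusted p 0.0470) therefore combined -0.92 in I183M, -1.23 in I183P and -4.06 in delta. Only delta passed alone (adjusted p 0.00181), and the lines differed (adjusted p 0.0247 in the F test among lines).

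Slc49a4 had controls at 12.20, 12.26 and 12.29 and delta at 9.02, 9.04 and 9.05. I183M lay at 11.40, 11.88 and 11.24 and I183P at 11.34, 11.64 and 10.73. Its pooled fold was -1.66 (SE 0.19, adjusted p 0.0470), with -0.75, -1.02 and -3.22 in the 3 lines, which differed (adjusted p 0.0247). On all 3 of these features I183M replicate 2 was the highest mutant array, and I183P replicate 3 was the lowest outside delta. In all, 4 features differed among the lines (0.0134%), and 7 did without control replicate 1. The feature at chr13:70745633-70776516 on mm9 stood at -1.82 pooled (SE 0.21, adjusted p 0.0470), with -0.71, -1.10 and -3.67 in the lines. Its other 2 probes gave 0.52 and 0.47, so probes of this feature disagreed in sign. Whether the 3 probes read separate transcripts was not tested.

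Leaving out single arrays narrowed this list. Without control replicate 1, 1 of the 7 stayed past the threshold, Scgb1c1, and the longer chromosome 17 feature had -1.55 (adjusted p 0.0711). The others had adjusted p 0.103 there, with folds of -1.52 (the shorter chromosome 17 feature), -1.07 (Cideb), -2.01 (Pde5a), -1.73 (Slc49a4) and -1.92 (chromosome 13), so the sizes moved little. Without I183P replicate 3, 6 of the 7 stayed and the shorter chromosome 17 feature did not. Leaving out any one of the other 10 arrays gave 1 or 2 lower features, with Scgb1c1 among them each time. Within slide 1, where I183M and I183P were set against the control, Scgb1c1 was at -3.76 (adjusted p 0.0803) and none passed. There Pde5a was at -0.92, Slc49a4 at -0.75 (adjusted p 0.711 each) and Cideb at -0.85 (adjusted p 0.400). With the slide as a block Scgb1c1 was at -3.46 (adjusted p 0.0144) and the longer chromosome 17 feature at -1.76 (adjusted p 0.0527). The slide term of that fit rests on I183P alone, the only group on both slides, with only its replicate 3 on slide 2. In that fit Pde5a was at -1.66 (adjusted p 0.202), Slc49a4 at -1.32 (adjusted p 0.259) and Cideb at -0.84 (adjusted p 0.299).

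Beyond the 7, the next lower genes did not pass. Heatr5b, which links adaptor complexes of vesicle traffic, had the smallest adjusted p of these. Its controls read 10.60, 10.48 and 10.68, and the mutants 10.09, 10.12 and 10.12 in I183M, 9.78, 9.83 and 9.76 in I183P and 9.58, 9.55 and 9.28 in delta. The groups did not overlap, and the pooled fold was -0.80 (SE 0.096, adjusted p 0.0525). Flvcr2, a choline and haem transporter of the vasculature, was at -1.80 (SE 0.26, adjusted p 0.193) and at -1.44 without control replicate 1 (adjusted p 0.0515). Lad1, of basement membranes, Ndrg4, of heart and brain, Gm11992 and Phka2, a subunit of phosphorylase kinase, had adjusted p 0.206. Their folds were -1.61, -1.53, -1.45 and -0.62. In all of them the 9 mutant arrays lay below the 3 control arrays. Second probes gave -0.92 for Heatr5b and -0.19 for Phka2, the latter well above background on 5 of 11 arrays. Over all features, 178 (0.597%) had the mutants below the controls and 303 (1.02%) had them above. In each line separately and with 1 sign, 95 features had an unadjusted p under 0.05 with a negative fold (0.319%) and 117 with a positive one (0.393%). Without control replicate 1 these were 230 (0.772%) and 131 (0.440%).

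No gene was higher past the threshold, and the 10 with the smallest p in that direction had adjusted p between 0.177 and 0.244. Efr3b, which holds a lipid kinase complex at the plasma membrane, was at 10.55, 10.52 and 10.57 in control and at 10.66 to 11.67 in the mutants. The fold was 0.16 in I183M, 1.03 in I183P and 0.92 in delta. Scn4b, a beta subunit of the cardiac sodium channel, had a pooled fold of 1.02 (SE 0.16, adjusted p 0.206), with 0.57, 1.43 and 1.07 in the lines. Its highest control array (13.39) overlapped with the lowest mutant array (13.34). Myl1, a skeletal muscle myosin light chain, read 13.30, 14.02 and 13.28 in control and from 14.79 to 16.03 in the mutants (fold 1.63, SE 0.26, adjusted p 0.206), and its second probe gave 2.64. Pfkfb1, an enzyme that sets the level of a glycolysis activator, was at 1.503 (SE 0.23), and Rorb, an orphan nuclear receptor, at 1.26 (SE 0.21). Fzd7, a Wnt receptor, was at 0.63, Pdlim4, an actin-binding protein, at 0.80 and Efnb2, an ephrin ligand of arteries, at 0.79. Second probes gave 1.23 for Rorb, 0.20 for Fzd7 and 0.19 for Efnb2. Those of Fzd7 and Efnb2 were well above background on 5 and 2 of 11 arrays. Tnfsf10, an apoptosis ligand, stood at 1.08 and the long noncoding Eprn at 0.96.

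**Figure D2:**
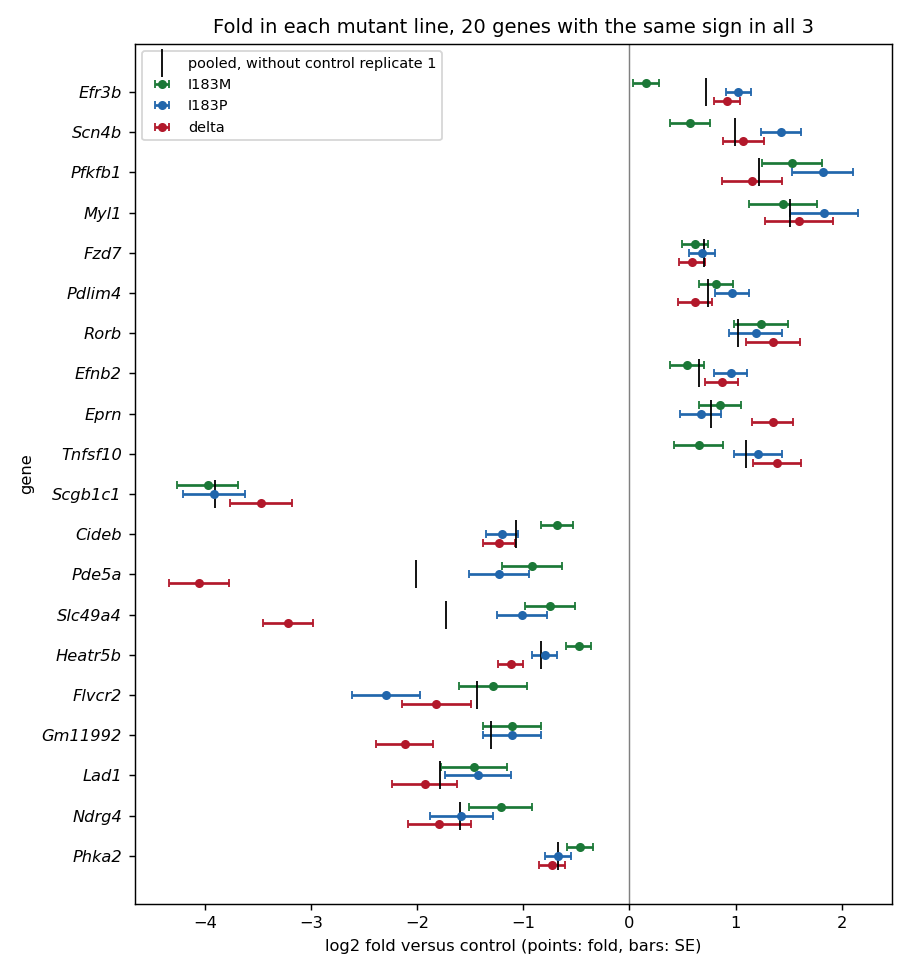
Log2 fold against control (horizontal axis) for each of the 3 lines, for the 10 genes with the smallest p in the positive direction and 10 in the negative direction. Points are folds, bars are SE, and the vertical tick is the pooled fold without control replicate 1. Of these genes, Scgb1c1, Cideb, Pde5a and Slc49a4 passed; Pde5a and Slc49a4 stand further from 0 in delta than in I183M and I183P.

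Nkx2-5, the altered gene, was read by 1 probe on chromosome 17. The probe read 13.62, 13.61 and 13.67 in control, 13.77, 13.76 and 13.72 in I183M, 13.90, 13.71 and 13.75 in I183P, and 12.91, 12.98 and 13.02 in delta. Delta lay below all other arrays, and I183M and I183P lay above the controls. The pooled fold was -0.13 (SE 0.084, adjusted p 0.56), as the folds of 0.12 and 0.16 met -0.66 in delta. The exact permutation test of the pooled difference (two-sided, 9 arrays against 3) gave p = 0.618, where the smallest possible is 0.00455. Whether the probe lies in the deleted part is not given in the sources used here. The lines did not differ past the threshold (adjusted p 0.16 in the F test).

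The natriuretic peptide genes showed large folds and a wide spread. Nppa, which is read in atrial and stressed ventricular muscle, was at 15.54, 15.85 and 15.67 in control. I183M read 14.57, 13.13 and 13.42, I183P 14.97, 14.42 and 14.42, and delta 16.29, 14.92 and 15.57. I183M and I183P lay below all controls while delta overlapped them. Its pooled fold of -1.05 (SE 0.34) had adjusted p 0.557, as had Nppb at -1.71 (SE 0.62). Nppb read 14.57, 14.52 and 14.27 in control, and only delta replicate 3 exceeded the controls, at 14.96. Sln, a regulator of the calcium pump that marks atrium, ran from 6.42 to 12.36 in control and 8.21 to 14.53 in the mutants (fold 2.61, SE 1.45). Acta1, of the fetal and stress programme, was at -0.82 and Ccn2, a matrix growth factor, at -0.70. Of 21 measured genes of that list, 9 had a positive pooled fold and none passed, with a median of -0.07 and -0.15 without control replicate 1, against 0.05 and 0.00 over all features. With each array scaled by its 75th percentile the list median turned to 0.31, and it was -0.13 with that scaling when control replicate 1 was left out as well. Without that array and with quantile scaling, Nppa was at -1.13 and Nppb at -1.66.

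**Figure D3:**
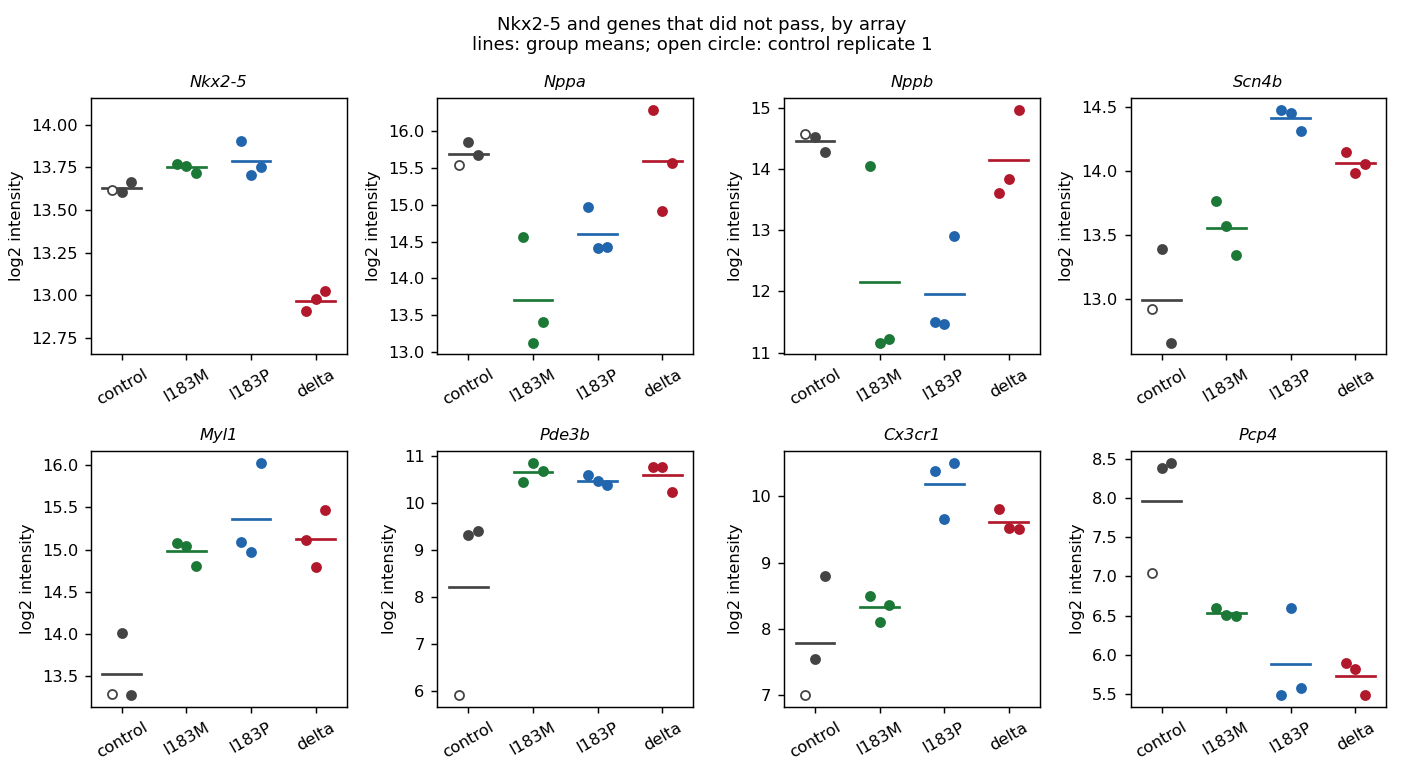
Log2 intensity (vertical axes) on each of the 12 arrays for Nkx2-5 and 7 genes that did not pass. Points are arrays, lines are group means, and the open circle is control replicate 1. Delta is the low group for Nkx2-5, and control replicate 1 is the lowest control array for Pde3b and Pcp4.

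Among ion channels, which set the cardiac action potential, 32 of 34 listed genes were measured. Of these, 21 had a positive fold, 18 a positive fold in all 3 lines and 10 a negative one in all 3, and none passed. Over all features, 39.5% had a positive fold in every line and 27.5% a negative one, or 24.8% and 26.7% without control replicate 1. Of the 17247 features with a symbol, 7656 had a positive fold in every line and 4128 a negative one. Without control replicate 1 these were 4145 and 4826. Beside Scn4b, Cacna2d1, a calcium channel subunit, was at 0.69 (SE 0.15), and Kcnj5 and Kcnj8, of the inward rectifier family, at 0.68 and 0.54. The list median was 0.35 and 0.08 without control replicate 1. Without that array, 17 had a positive fold, 11 a positive one in all 3 lines and 10 a negative one in all 3, with Scn4b at 0.99, Cacna2d1 at 0.55, Kcnj5 at 0.68 and Kcnj8 at 0.59. Of 20 phosphodiesterases, 1 was called, Pde5a, where 7 of all 29794 features were (0.0235%). The list was chosen with earlier results of these data known. Pde3b, which breaks down cyclic AMP, was at 5.90, 9.31 and 9.41 in control and between 10.23 and 10.86 in the mutants. Its fold of 2.37 (SE 0.64) became 1.28 without control replicate 1 (adjusted p 0.103). Pde11a was at 0.59, with 0.01 in I183M and 0.98 in delta.

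The 38 measured genes of the interferon response had a median fold of 0.39, with 31 above 0 and none past the threshold. By line the median was 0.07 in I183M, 0.58 in I183P and 0.49 in delta. Without control replicate 1 these were -0.04, 0.37 and 0.31. Psmb8, an immunoproteasome subunit, was at 10.34, 10.34 and 10.48 in control, 10.47 to 10.72 in I183M, 10.92 to 10.99 in I183P and 10.70 to 10.94 in delta. Ifit3, an antiviral effector, was at 0.61 (SE 0.15), Gbp5, a guanylate-binding protein, at 1.23 and the RNA sensor Ifih1 at 0.36. Cx3cr1, a chemokine receptor of macrophages, read 6.9999, 7.55 and 8.80 in control, 8.11 to 8.50 in I183M, 9.66 to 10.51 in I183P and 9.51 to 9.81 in delta (fold 1.59, SE 0.34, adjusted p 0.45). I183P and delta lay above all controls, and I183M did not. Its fold was 1.26 without control replicate 1. Of the 4 measured macrophage markers, Cx3cr1 among them, 2 had a positive fold in all 3 lines and 1 a negative one in all 3, and without control replicate 1 these were 3 and 1. The mean level of the 4 ran from 8.76 to 9.53 in control, 9.20 to 9.39 in I183M, 9.75 to 10.12 in I183P and 9.36 to 9.87 in delta. That of the 6 lymphocyte markers ran from 6.11 to 6.92 in control, 6.05 to 6.44 in I183M, 6.92 to 7.11 in I183P and 6.43 to 7.41 in delta. The part of these cells in the interferon values was not tested. In bulk samples more cells of a type and more RNA per cell cannot be told apart. Cd3e, of T cells, was at 0.31.

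Of 24 genes of the BMP and TGF-beta pathway, which pattern the heart, 17 had a positive fold and 3 a negative fold in all 3 lines, with a median of 0.25 and 0.19 without control replicate 1. Without that array, 10 had a positive fold and 4 a negative fold in all 3 lines. Bmp7, a ligand, was at 8.12, 8.23 and 8.28 in control and 6.70 to 7.85 in the mutants (fold -0.88, SE 0.20). Tgfb2, another ligand, was at 0.75 (SE 0.18), with its other probe at 1.90. Neither passed, and without control replicate 1 they were at -0.98 and 0.72. Of 22 Wnt genes the median was 0.55, and 0.12 without control replicate 1. The receptor Lrp5 was at 0.33 and the antagonist Sfrp5 at 1.67. Of 15 Notch genes the median was 0.65, and -0.11 without control replicate 1. The target Heyl was at 0.98 (0.37 without that array) and Notch3 at 0.27. The T-box repressor Tbx2 stood at 0.70 and Tbx18 at 1.33, and each was smaller without that array, at 0.33 and 0.49.

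The muscle and metabolic core had medians near 0 on this scale. Those over 28 sarcomere genes, 53 genes of oxidative phosphorylation, 44 of the cytosolic ribosome, 34 of fatty acid oxidation and 28 of glycolysis lay between -0.02 and 0.03, and none of their members passed. These lists are bright. With each array scaled by its 75th percentile their medians were 0.49 to 0.54, and between -0.03 and 0.05 when control replicate 1 was left out as well. Myh7b, a myosin heavy chain, had the 9 mutants (15.49 to 16.40) above the controls (15.21, 15.45 and 15.37). Its fold was 0.48 (SE 0.12, adjusted p 0.532). Casq1, a skeletal muscle calcium store protein, was at 1.25. The 7 measured skeletal muscle markers, with Casq1, Myl1 and Acta1 among them, went both ways. Of these, 3 had a positive fold in all 3 lines and 3 a negative one, with a median of -0.22. Without control replicate 1 these were 3 and 1, with a median of 0.24. Among lists of regulators, the 28 core cardiac transcription factors measured had a median of 0.06 (-0.14 without control replicate 1), 19 calcium cycling genes 0.06 (0.05), 20 clock genes 0.15 (-0.18) and 22 immediate early genes 0.19 (-0.05). The 30 collagen and matrix genes had 0.10 (-0.03) and the 15 heat shock genes 0.03 (0.04). None of their members passed. Pericyte Pdgfrb was at 0.42. The 5 smooth muscle and pericyte markers, Pdgfrb among them, had a median of 0.22, and 0.03 without control replicate 1.

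**Figure D4:**
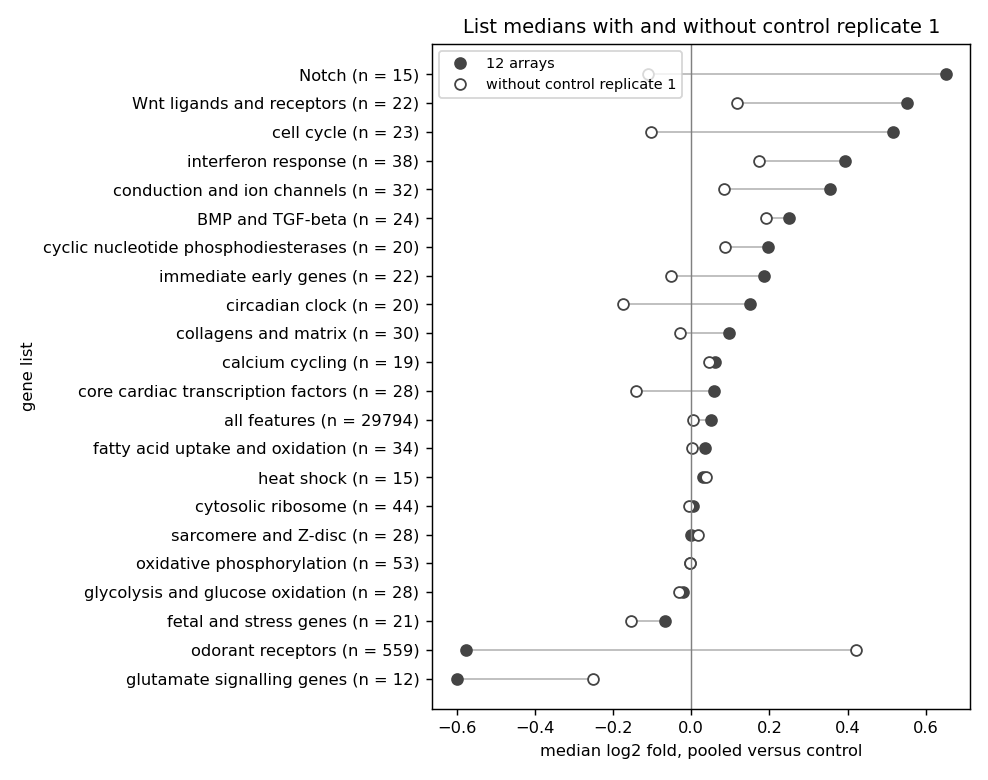
Median log2 fold of the pool against control (horizontal axis) over the measured genes of 21 lists and over all features, with all 12 arrays (filled) and without control replicate 1 (open). Bright lists such as sarcomere and ribosome stay near 0, while Notch, cell cycle and odorant receptors change sign when that array is left out.

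The 559 odorant receptor genes measured, which sense smell and are dim here, had a median fold of -0.58, and 0.42 without that array. With normexp and quantile scaling the median was -0.25, and 0.11 without that array. Their mean level was 6.80 on it, 4.38 and 4.11 on the other controls and 4.10 to 5.45 on the mutants. The filter did not count control replicate 1. Next to it, I183M replicate 1 and delta replicate 2 had the most spots above background, 72.8% and 75.2%. Without either, 27091 or 26940 features were tested in place of 29794. Dim genes thus entered partly through these mutant arrays, and the positive median is not read as a group difference. The cell cycle median was 0.52, and -0.10 without control replicate 1. The 12 measured glutamate signalling genes had -0.60, and -0.25 without that array, which turned to 0.25 with the 75th percentile. Grin2c, a receptor subunit, read 4.81, 6.70 and 7.61 in control and was well above background on 4 of 9 mutant arrays, and Shisa6, an auxiliary subunit, likewise on 4 of 9.

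With control replicate 1 left out, 646 features (2.17%) had all 9 mutants above both controls and 1083 (3.63%) below. Prlr, the prolactin receptor, then had 0.81, Amy1, an amylase, 1.24, Unc13b, of vesicle release, 0.72 and St8sia4, a sialyltransferase, 0.74, with adjusted p 0.103 to 0.133. Pcp4, a calmodulin regulator of conduction tissue, was at 8.38 and 8.45 in those controls and 5.48 to 6.60 in the mutants (fold -2.50, adjusted p 0.0711). Nrn1, a neuritin, Hoxb3, a homeobox factor, and Kcnj4, an inward rectifier, had -1.16, -0.88 and -2.50. Tfap4, a helix-loop-helix factor, went from -0.22 to 1.05, as control replicate 1 read 9.14 and the other controls 5.60 and 5.39. Phxr4 was well above background on 1 of 9 mutant arrays and passed the filter through the controls.

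With the scanner signals corrected by normexp (offset 50), quantile scaling and control replicate 1 left out, 41 features passed, 7 higher (0.0235%) and 34 lower (0.114%). This setting was chosen after the data were seen. All 41 had the same sign in the 3 lines, which their choice by the pooled contrast and the shared controls favour. With quantile scaling and without that array, 24.8% of all features had a positive fold in every line and 26.7% a negative one. In each line separately, 9 of the 29794 features passed. Of these 9, AI593442 was well above background on 0 of 9 mutant arrays and Tlcd4 on 1. AK033061 was so on 5 and Kcnj4 on 6. AI593442 and Tlcd4 were well above background on the 2 controls left and passed the filter through them. The higher named genes were Pde3b (1.18), Amy1 (1.18), Prlr (0.77), Unc13b (0.71) and Efr3b (0.71). Among the lower were Scgb1c1 (-3.69), Pcp4 (-1.47), Flvcr2 (-1.22), Nrn1 (-1.05), Cideb (-1.04), Lad1 (-1.03), Heatr5b (-0.78) and Hoxb3 (-0.62). Of the 41, 32 had a negative pooled fold with all arrays and quantile scaling. Hpn and Cryzl2, lower here, had positive folds there, at 0.38 and 0.07.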

How the data were processed

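RNA of 12 heart apex samples was read on single-colour Agilent arrays. Per the file headers, images were read with Feature Extraction 11.0.1.1 on an mm9 layout, and the deposited processed intensity is corrected for background within each array. The authors' deposited table holds log2 values whose steps are not stated. The submitters' processing notes name Agilent Feature Extraction and limma. Here control and outlier spots were left out, log2 processed intensity was averaged per probe and quantile normalized. Tested probes were well above background on 2 or more of the 11 arrays other than control replicate 1, and a gene was read from its brightest tested probe. RefSeq accessions (GRCm38.p6) named 27235 of 55681 probes; 17247 tested features have a symbol. One limma 3.58.1 fit (R 4.3.3, lmFit, eBayes, 4 groups) gave the pooled contrast, each line's contrast and an F test among lines. It was tested on simulated data. Named genes are Nkx2-5, those past the threshold, the 10 of smallest p per direction with and without control replicate 1, and up to 4 per list. Members and lists were chosen with earlier results of these data known. In all, 24 alternatives were set in advance and 3 were added after the data were seen. The number of arrays limits the precision.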

Additional observations from a re-analysis of the deposited data

Results flagged for a closer look

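In all, 4 features differed among the 3 mutant lines by limma's moderated F test over all features (adjusted p 0.0247 each, 4 of 29794 or 0.0134%). Pde5a stood at -0.92 in I183M, -1.23 in I183P and -4.06 in delta, and Slc49a4 at -0.75, -1.02 and -3.22. The unnamed feature at chr13:70745633-70776516 on mm9 stood at -0.71, -1.10 and -3.67. The unnamed feature at chr8:74333475-74384150 was the only 1 of the 4 with opposite signs, at -0.32, 0.17 and 2.50, and it was not called in the pool. Its delta arrays read 7.94, 7.9987 and 8.39 and its other mutant arrays 5.07 to 6.06. Other probes of this feature gave pooled folds of 0.64, 0.57, -0.49 and 0.04. They were well above background on 2, 7, 1 and 0 of 11 arrays. Delta lay on slide 2 with 1 I183P array, which read 11.36 for Pde5a against 9.00 to 9.30 in delta. The I183M and I183P arrays on slide 1 read 11.99 to 12.72. Slide and allele cannot be told apart for delta against the control, and 1 array does not separate them. With the slide as a block 3 features differed among the lines.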

How the results depend on the processing

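Over 27 alternatives, Scgb1c1 stayed past the threshold in 26 (adjusted p 0.000209 to 0.0803), with folds of -3.95 to -3.46; within slide 1 it did not pass. The longer chromosome 17 feature passed in 13, the shorter in 9, and Cideb, Pde5a, Slc49a4 and the chromosome 13 feature in 7 each. Of 1743 recomputed values of the 65 named genes and features other than Nkx2-5, 1735 kept their direction.

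Leaving out 1 array gave 0 to 1 higher, 1 to 6 lower, 1 to 7 with the same sign in all lines, 0 to 2 in each line and 0 to 15 that differed among lines, and Nkx2-5 at -0.15 to -0.11. The highest count of lower features came without I183P replicate 3. The highest count among lines came without I183M replicate 1.

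Lower features numbered 3 with the 75th percentile, with the mean of a gene's probes and with a 2 group fit. They numbered 2 with no filter on dim probes, 1 with the slide block and 0 on slide 1 alone, where the pool lacked delta. Higher features numbered 3 with the slide as a block (AK079329, Cdh22 and Pigb, named after their values were seen) and 1 with a filter on all arrays (Efr3b). The 1 without control replicate 3 was C86380, and without I183P replicate 3 Cdh22. With array weights, which gave control replicate 1 a weight of 0.0319, 223 were higher and 271 lower, 493 had the same sign in all lines, 27 passed in each line and 138 differed among lines. Same-sign counts were 3 with the 75th percentile and the mean of probes, 4 with the slide block, 0 within slide 1 and 2 with no filter. Counts in each line were 0 with the 75th percentile and the slide block, and 2 with normexp, the authors' deposited values and the filter on all arrays. Counts among lines were 0 with the 75th percentile and 2 with the mean of probes.

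Without control replicate 1, the added settings gave as follows. Normexp gave 7 higher, 34 lower, 41 of the same sign, 9 in each line and 33 among lines. The 75th percentile gave 2 higher, 4 lower, 0 in each line and 10 among lines. The authors' deposited values gave 1 higher, 11 of the same sign and 9 among lines. The cause of these moves was not tested.

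Reversed values were Nkx2-5 at 0.33 with the 75th percentile and 0.15 within slide 1, and the chromosome 8 feature at -0.022 within slide 1. Within slide 1 the pool held I183M and I183P without delta, so those values belong to another contrast. Kcnj4 was reversed at 0.14 without control replicate 3 (-2.50 to 0.14 over arrays left out). Tfap4 was at -0.87 to 1.05 over arrays left out, the last without control replicate 1, 0.088 with the 75th percentile and 0.91 with array weights. Without control replicate 1 it was at 0.47 with normexp, 1.49 with the 75th percentile and 0.56 with the authors' deposited values.

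The replicate block left 1 lower feature, 1 of the same sign and 0 among lines. Same-numbered arrays correlated between -0.713 and 0.642 over 18 pairs and others between -0.733 and 0.742 over 36. The highest of each joined control replicate 1 with I183M replicate 1 and with delta replicate 2. These arrays had the most spots above background (99.1%, 72.8% and 75.2%). Whether the numbers pair samples therefore cannot be told from these ranges.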
